A study of Mus musculus with 8 samples.

Results

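The nuclear genes of the respiratory chain and ATP synthase were followed in mammary tumours of mice given the kinase inhibitor SKI-606 or its vehicle. Members were taken by gene symbol: symbols that begin with Nduf (complex I), Sdha to Sdhd (complex II, with its assembly factors), Uqcr (complex III), Cox4 to Cox8 or Cox1 followed by a digit (complex IV and its assembly) or Atp5 (ATP synthase). Of 108 protein-coding symbols of this form in the RefSeq table, some had a probe that could be named, and with 1 gene listed as a pseudogene these came to 53. Of the 53 genes, 51 were detected on at least 4 of 8 arrays, out of 4137 named genes and 12281 probes that passed the same filter. A detected probe is one with a detection p under 0.05, and a gene with several such probes is given by its brightest. The genes left out were Sdha, the flavoprotein of complex II, and the assembly factor Ndufaf6, whose named probes did not pass.

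The tumours came from female FVB/N-Tg(MMTV-PyVT)634Mul/J mice, in which the mouse mammary tumour virus promoter drives the polyoma middle T antigen in mammary epithelium. Both groups carried this transgene, and no age is given. SKI-606 (bosutinib), an inhibitor of Src and Abl kinases, was given by gavage at 100 mg/kg in 0.5% methocellulose with 0.4% detergent (4 tumours), and 4 tumours were vehicle-treated. Whether the arrays of a group stand for different animals is not stated, so the tests rest on the spread between arrays, and 4 arrays a group set the limit of precision. Of 10 markers of luminal mammary epithelium 6 were measured, and their mean stayed within -0.17 to 0.13 of the vehicle mean in SKI-606 tumours (log2). Singly, 3 were lower and 3 higher with SKI-606, with log2 differences from -0.82 for Cldn4 to 0.31 for Esr1. Treated arrays took the first places of the single chip and controls the last, and place and treatment cannot be told apart. The source label of the second SKI-606 sample speaks of human islets, unlike its title, by which it was grouped. Between 11837 and 12578 probes were detected per array. The mean raw signal was 300 in SKI-606 replicate 1, 313 in vehicle replicate 4 and 373 to 420 on the other arrays. Array weights, used only in an alternative fit, were 0.39 for SKI-606 replicate 3, 0.44 for SKI-606 replicate 1 and 0.45 for vehicle replicate 4. They were 0.73 to 2.62 for the other arrays. The part of array quality in the values of these tumours was not tested.

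The respiratory chain is the series of protein complexes in the inner mitochondrial membrane that passes electrons from NADH (complex I) and succinate (complex II) through ubiquinone, complex III and cytochrome c to oxygen at complex IV. Complexes I, III and IV pump protons, and ATP synthase lets the protons flow back through a rotor and makes ATP. Most subunits are nuclear genes whose promoters often carry sites for NRF1, the ETS factor GABP and YY1, while a small core is made from mitochondrial DNA and is not covered by the symbol rule.

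No respiratory chain or ATP synthase gene passed the test between SKI-606 and vehicle tumours after adjustment over all probes. Slightly lower values with the drug were found for 35 of 51 members (68.6%), beside 52.6% of all probes tested, and the median difference was -0.083 on the log2 scale, beside -0.0083 for all probes. The members with the smallest p, all lower with SKI-606, were Atp5g2 and Atp5c1 of ATP synthase, Sdhc of complex II and the complex IV assembly factor Cox16, at 1.21-fold to 1.29-fold. In limma's test with Benjamini-Hochberg adjustment, 0 of 51 members passed an adjusted p under 0.05, against 1 of 12281 probes (0.00814%), and the smallest adjusted p of a member was 0.196. At an unadjusted p under 0.05, 4 members (7.84%) were lower and 0 higher, against 10.3% of all probes lower and 6.04% higher. The groups did not overlap for 1 member on the lower side (1.96%), Atp5c1, against 7.42% of all probes. In this fit the share of members called lower was below that of all probes by both of these rules. The order at the unadjusted p did not hold in every fit. Without the filter on dim probes, 7.84% of members and 6.71% of all probes were lower. With replicate number as a block, over numbers 1, 2 and 4, the shares were 7.84% and 7.68%. The same arrays without the block gave 1.96% and 6.86%.

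The counts moved with single tumours. Without SKI-606 replicate 1 there were 9 members lower at an unadjusted p under 0.05 (17.6%; 9.44% of all probes) and 10 lower without overlap (19.6%; 10.2% of all probes), so that the share of members then exceeded that of all probes by both rules. Without SKI-606 replicates 2 or 3 or vehicle replicates 3 or 4 there were 2 at that p (3.92%), against 11.1%, 8.79%, 7.87% and 8.31% of all probes. Lower without overlap were 3 members when vehicle replicate 1 was left out (5.88%; 9.18% of all probes), 5 when vehicle replicate 2 was left out (9.80%; 10.2%) and 2 when SKI-606 replicate 4 was (3.92%; 10.4%). The members lower numbered 48 of 51 (94.1%) when every array was scaled to 1 common median, where 74.3% of all probes were lower and the median of all probes was -0.12, and 31 of 51 (60.8%) with cyclic loess, where 48.8% of all probes were lower. The 95% interval of the difference lay within 0.32 log2 units of 0 for 10 of 51 members (19.6%), a smaller share than the 33.1% of all probes. It lay within 1.5-fold either way for 36 of 51 members (70.6%; 64.0% of all probes) and within 2-fold for 45 (88.2%; 86.4% of all probes). The shares of all probes given so far were not matched for signal, and the members were brighter, with a median log2 signal of 10.87 against 7.39. The median standard error of a member's difference was 0.142, beside 0.124 for all probes. It was near the 0.147 of 2443 probes within the interquartile range of the members' signal.

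**Figure D1:**
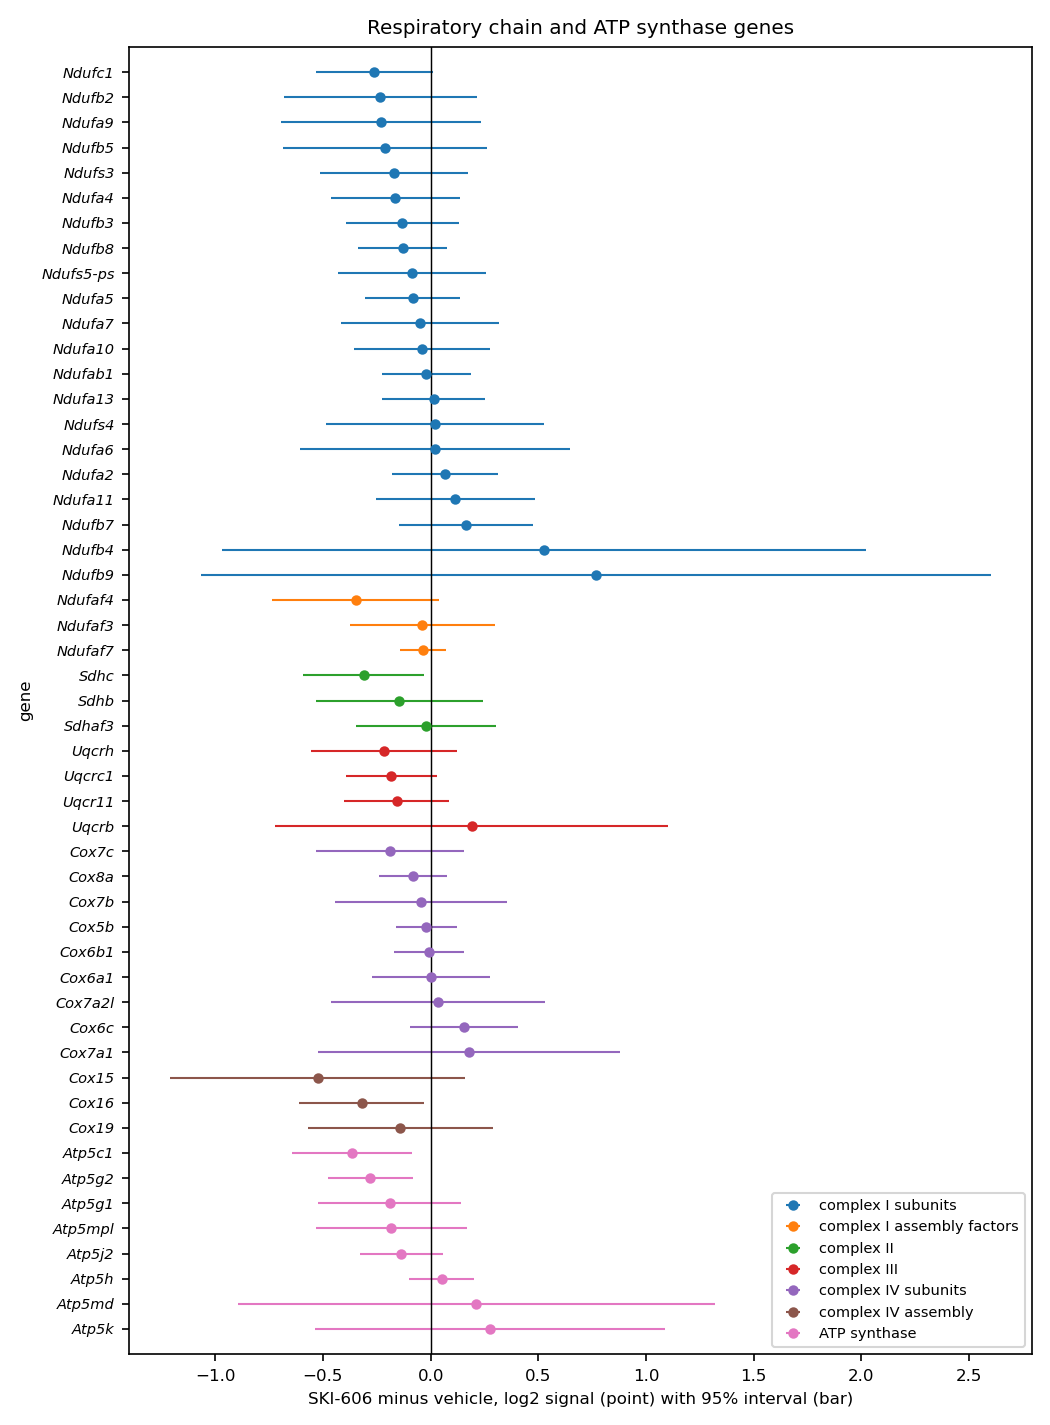
The difference between SKI-606 and vehicle tumours on the log2 scale (horizontal axis) is plotted for each of 51 genes (vertical axis), with points for the limma estimate and bars for its 95% interval, coloured by complex. Most points lie between -0.36 and 0.28 and most bars cross 0, and the widest bars belong to Ndufb9 and Ndufb4, with standard errors of 0.79 and 0.64.

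Promoters are shown for Atp5c1, Atp5g2 and Cox16, among the 4 members with the smallest p, and for Ndufb4 and Atp5k, which were very low in 1 vehicle tumour. RefSeq windows of GRCm38.p6, from 250 bases before to 50 after each start, were matched by gene ID for 44 of the 51 genes and 27025 genes in all, taking the first window listed. Atp5c1 and Cox16 have 2 windows each, and the second is not shown. Both strands were searched for the letters CGCANGCG (NRF1 core), CCGGAAG (ETS family, with GABP), AAGATGGC (YY1), GGGGCGG (SP1), TGACGTCA (CREB) and TCAAGGTCA (ERR). The NRF1 core was present in 15 of 44 members (34.1%) and 8.42% of all genes with a window, and the ETS letters in 14 (31.8%) and 9.12%. YY1 letters were present in 5 members (11.4%; 2.88% of all genes), SP1 letters in 14 (31.8%; 23.4%), CREB letters in 3 (6.82%; 1.88%) and ERR letters in 0 (0.407% of all genes). A match is a description of the sequence, not a site in use. In these windows, 5′ to 3′ on the gene's strand, capitals mark matches on either strand. They are Atp5c1 at chr2:10080461-10080760 (minus strand), Atp5g2 at chr15:102670998-102671297 (minus strand), Cox16 at chr12:81484802-81485101 (minus strand), Ndufb4 at chr16:37654319-37654618 (minus strand) and Atp5k at chr5:108434350-108434649 (minus strand). Atp5c1 holds an NRF1 core after its start, Atp5g2 an NRF1 core and an SP1 match, Cox16 an ETS match that runs into an SP1 match, Ndufb4 an SP1 match and several NRF1 cores, and Atp5k an NRF1 core and an ETS match.
Atp5c1: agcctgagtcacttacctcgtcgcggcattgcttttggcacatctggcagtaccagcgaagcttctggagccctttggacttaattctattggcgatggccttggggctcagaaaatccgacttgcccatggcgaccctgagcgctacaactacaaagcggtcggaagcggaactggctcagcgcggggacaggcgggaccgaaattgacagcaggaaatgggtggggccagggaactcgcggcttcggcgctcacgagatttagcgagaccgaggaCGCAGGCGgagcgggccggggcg
Atp5g2: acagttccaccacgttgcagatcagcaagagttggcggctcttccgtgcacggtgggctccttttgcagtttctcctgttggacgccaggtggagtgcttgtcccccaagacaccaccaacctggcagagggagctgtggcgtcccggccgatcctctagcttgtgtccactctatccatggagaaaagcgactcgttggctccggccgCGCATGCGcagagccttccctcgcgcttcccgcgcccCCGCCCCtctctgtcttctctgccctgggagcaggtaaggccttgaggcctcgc
Cox16: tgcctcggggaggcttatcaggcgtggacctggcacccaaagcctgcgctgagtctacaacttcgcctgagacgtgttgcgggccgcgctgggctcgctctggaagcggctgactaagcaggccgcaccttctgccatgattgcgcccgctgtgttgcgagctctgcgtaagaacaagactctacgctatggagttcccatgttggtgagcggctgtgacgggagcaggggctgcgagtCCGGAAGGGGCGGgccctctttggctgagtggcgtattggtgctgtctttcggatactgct
Ndufb4: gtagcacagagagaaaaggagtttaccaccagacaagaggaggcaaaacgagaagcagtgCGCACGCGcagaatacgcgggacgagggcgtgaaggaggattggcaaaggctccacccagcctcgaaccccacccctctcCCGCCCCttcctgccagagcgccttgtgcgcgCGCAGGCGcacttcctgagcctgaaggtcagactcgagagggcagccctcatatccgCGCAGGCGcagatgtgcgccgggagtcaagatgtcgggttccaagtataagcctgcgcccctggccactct
Atp5k: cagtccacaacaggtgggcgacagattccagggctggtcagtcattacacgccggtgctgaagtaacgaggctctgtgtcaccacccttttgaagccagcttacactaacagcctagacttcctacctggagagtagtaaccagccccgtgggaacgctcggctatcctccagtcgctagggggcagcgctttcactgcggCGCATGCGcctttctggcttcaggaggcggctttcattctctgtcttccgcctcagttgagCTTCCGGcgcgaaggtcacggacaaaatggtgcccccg

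Complex I, which oxidises NADH, had 21 measured genes besides its assembly factors, 13 lower and 8 higher with SKI-606, with a median difference of -0.050 and 0 at an unadjusted p under 0.05. Ndufc1, an accessory subunit of the membrane arm, had the smallest p. Its log2 signal was 11.32, 10.84, 10.90 and 11.03 in SKI-606 replicates 1 to 4 and 11.32, 11.20, 11.18 and 11.44 in vehicle replicates 1 to 4. SKI-606 replicate 1 lay among the vehicle values and the other 3 lay below them all, with a difference of -0.26 ± 0.12 (SE; limma adjusted p = 0.325). Ndufb8, also of the membrane arm, read 12.41 ± 0.17 against 12.54 ± 0.045 (SD, n = 4; limma adjusted p = 0.538), and its groups overlapped. Ndufa4, counted here by its symbol although it is now placed in complex IV, read 12.90 ± 0.23 against 13.07 ± 0.14 (limma adjusted p = 0.590).

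Ndufs3, a core subunit of the arm that carries the iron-sulfur clusters, had probes that differed. It was named here after its values were seen, because the groups did not overlap for its dimmer probe. That probe read 7.88, 7.71, 7.60 and 7.76 in SKI-606 replicates 1 to 4 and 8.09, 8.08, 8.01 and 8.66 in vehicle replicates 1 to 4, a difference of -0.47 ± 0.15 (SE; limma adjusted p = 0.202). The brighter probe differed by -0.17 ± 0.15 (limma adjusted p = 0.635) with overlapping groups, and by -0.054 without SKI-606 replicate 3. In vehicle replicate 4 the dimmer probe was the highest of the 8 tumours at 8.66, while the brighter one, at 10.73, was the lowest vehicle value. Probes of Ndufs4, a subunit whose loss causes Leigh-like disease in mice, differed in sign, at 0.020 ± 0.22 and -0.075 ± 0.17 (SE), and both read lowest among the vehicle tumours in replicate 4.

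Of the other complex I subunits, the most negative differences were those of Ndufb2, Ndufa9 and Ndufb5, at -0.23, -0.23 and -0.21, and the most positive those of Ndufb9, Ndufb4 and Ndufb7, at 0.77, 0.53 and 0.16. Ndufb3 differed by -0.13 ± 0.11, Ndufa5 by -0.084 ± 0.094, Ndufa7 by -0.050 ± 0.16 and Ndufa10 by -0.038 ± 0.14 (SE). Small positive differences were those of Ndufa13, also known as GRIM-19, at 0.015 ± 0.10, Ndufa2 at 0.067 ± 0.10 and Ndufa11 at 0.12 ± 0.16. Ndufa6 differed by 0.021 ± 0.27 and was lowest in vehicle replicate 4, at 9.48. The probe named Ndufs5-ps carries the ID of a pseudogene of Ndufs5, so its value of -0.086 ± 0.15 is uncertain as to the gene. Ndufab1, the mitochondrial acyl carrier protein, was dim, at 6.31 ± 0.019 against 6.33 ± 0.17 (SD).

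All 3 measured complex I assembly factors were lower, with a median of -0.039. Ndufaf4 read 9.05, 9.35, 8.77 and 9.51 in SKI-606 replicates 1 to 4 and 9.33, 9.64, 9.47 and 9.65 in vehicle replicates 1 to 4. SKI-606 replicates 1 and 3 lay below the vehicle tumours and the others within their range, for a difference of -0.35 ± 0.17 (SE; limma adjusted p = 0.361). Its partner in assembly, Ndufaf3, differed by -0.039 ± 0.14, and Ndufaf7, a methyltransferase that acts on a complex I subunit, by -0.037 ± 0.046 at a dim signal.

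Complex II, the succinate dehydrogenase that also serves the citric acid cycle, had 3 measured genes, all lower, with a median of -0.15. Sdhc, a membrane anchor subunit, read 11.74, 11.43, 11.27 and 11.45 in SKI-606 replicates 1 to 4 and 11.79, 11.57, 11.81 and 11.96 in vehicle replicates 1 to 4. Only SKI-606 replicate 1 lay above a vehicle tumour, replicate 2, and the difference was -0.31 ± 0.12 (SE), 1.24-fold lower (95% interval of the log2 difference -0.59 to -0.029; limma unadjusted p = 0.0346, adjusted p = 0.267). Sdhb, the iron-sulfur subunit, read 10.55 ± 0.31 against 10.69 ± 0.18 (SD, n = 4; limma adjusted p = 0.734), and SKI-606 replicate 1, at 11.00, was the highest of the 8 tumours. Sdhaf3, an assembly factor of the complex, differed by -0.023 ± 0.14 (SE).

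Complex III, which passes electrons from ubiquinol to cytochrome c, had 4 measured genes, 3 lower, with a median of -0.17. The core protein gene Uqcrc1 read 11.57, 11.55, 11.32 and 11.38 in SKI-606 replicates 1 to 4 and 11.45, 11.75, 11.70 and 11.65 in vehicle replicates 1 to 4. The groups overlapped through vehicle replicate 1, and the difference was -0.18 ± 0.090 (SE; limma adjusted p = 0.378). Uqcrh, the hinge protein, differed by -0.22 ± 0.15 and was lowest in SKI-606 replicate 3, at 11.80. Without that tumour its difference was -0.080. Uqcr11, a small subunit, differed by -0.16 ± 0.10 (SE; limma adjusted p = 0.525).

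Complex IV, cytochrome c oxidase, had the median nearest to 0 of the classes, at -0.0081 over 9 subunits, 5 lower and 4 higher, with 0 at an unadjusted p under 0.05. Cox5b, a subunit of the matrix side, differed by -0.020 ± 0.060 (SE), with a 95% interval of -0.16 to 0.12. Cox6b1 differed by -0.0081 ± 0.070 and the widely expressed isoform Cox6a1 by 0.00095 ± 0.12, and the dimmer probe of each gene gave -0.062 and 0.026. The smallest p was that of Cox6c, which read 13.00 ± 0.10 against 12.85 ± 0.20 (SD, n = 4; limma adjusted p = 0.543). Cox7c differed by -0.19 ± 0.15, and by -0.042 without SKI-606 replicate 3. Cox8a, the widely expressed form of its subunit, differed by -0.083 ± 0.068, and Cox7b by -0.045 ± 0.17. Cox7a2l, a factor in joining complexes III and IV into supercomplexes, differed by 0.033 ± 0.21 and was lowest in vehicle replicate 4, at 8.95. Without that tumour its difference was -0.15.

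Cox7a1, the isoform typical of heart and skeletal muscle, had the largest SD of the complex IV subunits among SKI-606 tumours. It read 8.71, 7.54, 8.27 and 8.67 in SKI-606 replicates 1 to 4 and 8.11, 7.65, 8.13 and 8.59 in vehicle replicates 1 to 4. Replicate 2 was the lowest tumour in each group, and SKI-606 replicates 1 and 4 and vehicle replicate 4 were the highest, with a difference of 0.18 ± 0.30 (SE), within that spread. Of 10 skeletal muscle markers only Actn3, the alpha-actinin of fast fibres, had a named probe. It read 7.61 in SKI-606 replicate 1 and 7.74 in vehicle replicate 4, and 6.02 to 6.14 in the remaining tumours. Of 12 adipocyte markers 3 were measured, and their mean against the vehicle mean was 1.78, -0.11, 0.84 and 1.69 in SKI-606 replicates 1 to 4 and ranged from -0.59 to 0.67 in vehicle tumours. The 6 brown fat markers had no named probe. The part of these cells in the Cox7a1 values was not tested, and fewer cells of a type and less RNA per cell cannot be told apart in such tumour pieces.

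The complex IV assembly genes were all lower, with a median of -0.32 over 3 genes, the most negative of the classes. Cox16, which takes part in building the copper centre, read 9.51, 9.23, 9.05 and 9.42 in SKI-606 replicates 1 to 4 and 9.56, 9.44, 9.65 and 9.83 in vehicle replicates 1 to 4. Only SKI-606 replicate 1 lay above the lowest vehicle tumour, and the difference was -0.32 ± 0.12 (SE), with a 95% interval of -0.61 to -0.029 (limma unadjusted p = 0.0353, adjusted p = 0.268). Cox15, an enzyme of haem A synthesis, had the most negative difference of all members, -0.52 ± 0.29 (SE; limma adjusted p = 0.438). In SKI-606 replicate 1 it read 7.03, where the other SKI-606 tumours read 7.85 to 8.36 and the vehicle tumours 7.84 to 8.53, and without that tumour the difference was -0.27. Cox19, a copper-binding assembly protein, differed by -0.14 ± 0.18. Without SKI-606 replicate 2 that difference was -0.0023, and without SKI-606 replicate 1 it was -0.27.

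ATP synthase had 8 measured genes, 5 lower and 3 higher, with a median of -0.16. At an unadjusted p under 0.05, 2 were lower (25%), against 10.3% of all probes, and 0 were higher. Atp5c1, the gamma subunit that forms the rotor shaft, read 12.68, 12.36, 12.17 and 12.64 in SKI-606 replicates 1 to 4 and 12.85, 12.74, 12.82 and 12.90 in vehicle replicates 1 to 4. Every SKI-606 value lay below every vehicle value, with a difference of -0.36 ± 0.12 (SE), 1.29-fold lower (95% interval of the log2 difference -0.64 to -0.085; limma unadjusted p = 0.0173, adjusted p = 0.213). Atp5g2, which encodes the c subunit of the rotor ring, read 10.43, 10.16, 10.22 and 10.33 in SKI-606 replicates 1 to 4 and 10.64, 10.43, 10.50 and 10.68 in vehicle replicates 1 to 4. Its groups met at SKI-606 replicate 1 and vehicle replicate 2, and the difference was -0.28 ± 0.085 (SE), 1.21-fold lower (limma adjusted p = 0.196). Atp5g1, another gene for the same c subunit, differed by -0.19 ± 0.14 (limma adjusted p = 0.576), and whether the probes of these like genes share signal was not tested. Atp5j2, a subunit of the membrane part, differed by -0.14 ± 0.083 and Atp5mpl, a small membrane protein of the enzyme, by -0.18 ± 0.15, while Atp5h, of the peripheral stalk, differed by 0.052 ± 0.065.

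**Figure D2:**
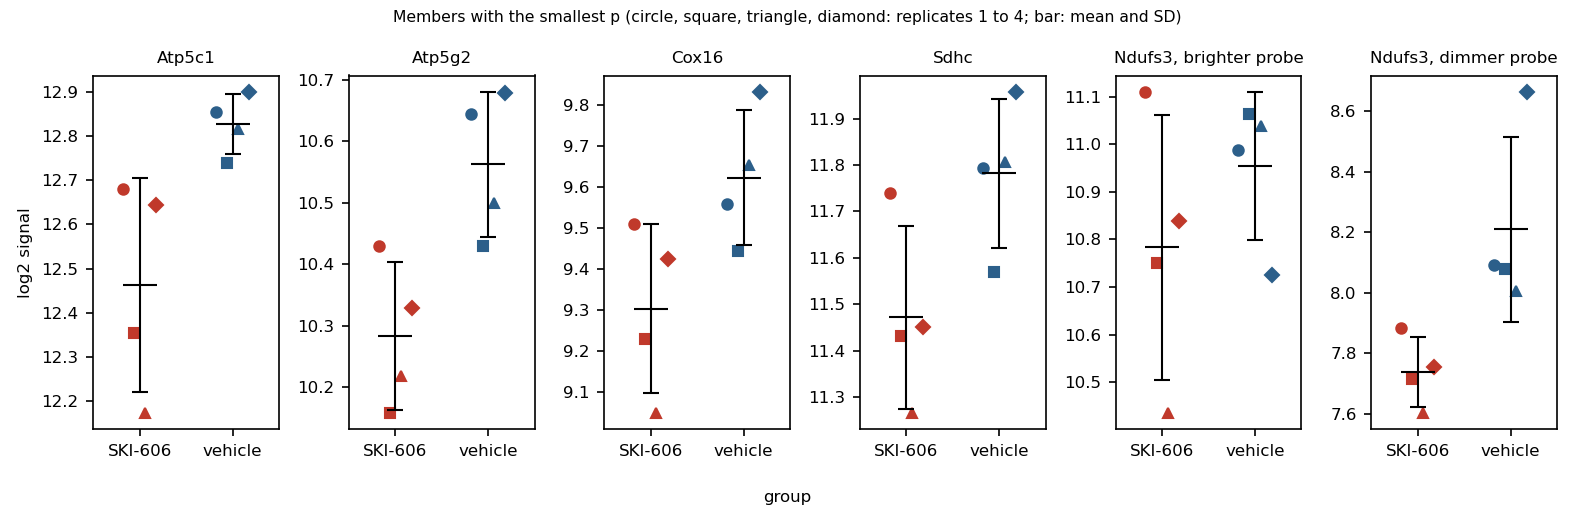
The log2 signal in each tumour (vertical axis) is plotted by group for Atp5c1, Atp5g2, Cox16 and Sdhc and for both probes of Ndufs3, with symbols for replicates and bars for mean and SD. The groups are apart for Atp5c1 and the dimmer Ndufs3 probe and overlap or meet in the other panels, and SKI-606 replicate 1 is the highest of its group in all of them.

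Across tumours the means of the members overlapped between the groups. The mean of the 51 genes, relative to the vehicle mean, was 0.14, -0.18, -0.21 and 0.019 in SKI-606 replicates 1 to 4 and 0.046, -0.0044, 0.10 and -0.15 in vehicle replicates 1 to 4. The SKI-606 mean was -0.058 ± 0.17 and the SD of the vehicle tumours 0.11 (n = 4 each). SKI-606 replicate 3 was the lowest of the 8 tumours for 24 members (47.1%; 18.5% of all probes) and replicate 1 the highest for 19 (37.3%; 16.3% of all probes). In SKI-606 replicate 3 the class means were -0.40 for complex III, -0.39 for complex II, -0.29 for ATP synthase, -0.15 for complex IV subunits and -0.13 for complex I subunits. The same tumour was low in proliferation markers, of which 5 of 12 were measured. Their mean was -0.69, 0.10, -2.31 and -0.075 in SKI-606 replicates 1 to 4 and ranged from -0.18 to 0.14 in vehicle tumours. Their part in the member values was not tested. The members' median relative to all probes, -0.074 with all arrays, was -0.14, -0.029, -0.030 and -0.083 without SKI-606 replicates 1 to 4 in turn.

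**Figure D3:**
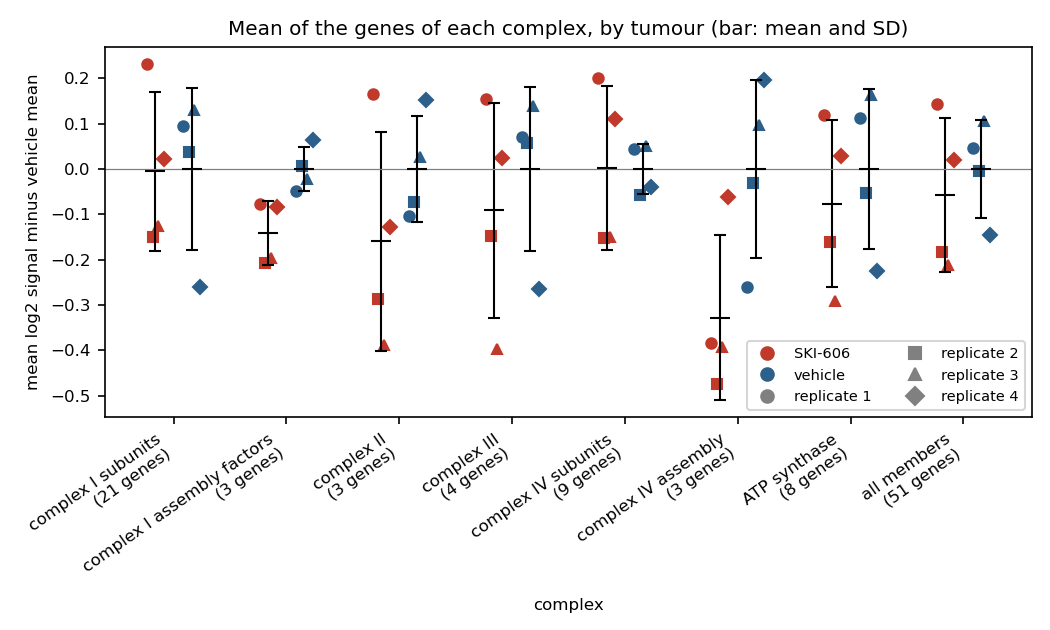
The mean log2 signal of the genes of each complex, minus the vehicle mean (vertical axis), is plotted for each tumour by complex (horizontal axis), with colours for group, symbols for replicates and bars for mean and SD. SKI-606 replicate 1 is the highest tumour for complex I subunits, complex II (with its assembly factor Sdhaf3), complex III and complex IV subunits. SKI-606 replicates 2 and 3 lie low in these classes. Vehicle replicate 4 is low for complex I subunits (-0.26), complex III (-0.27) and ATP synthase (-0.22).

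Vehicle replicate 4, with a mean raw signal of 313, stood apart in a few members, which were named after their values were seen. In 5 of 51 members (9.80%) it lay more than 1 log2 unit below the median of the other 7 tumours, as did 2.95% of all probes on that array. On the other arrays this held for 0 or 1 member and for 0.244% to 2.30% of all probes. These shares were not matched for signal, and the members were brighter, with a median log2 signal of 10.87 against 7.39 for all probes. Ndufb9, an accessory subunit of complex I, had a raw signal of 82.4 on that array and between 705.9 and 1171.9 on the others, and its normalized log2 signal was 6.47 against 9.31 to 10.28. Ndufb4, a subunit of the membrane arm, had a raw signal of 46.2 against 371.6 to 656.2 and did not pass the detection threshold there. Atp5md, a small subunit that helps ATP synthase pair up, read 45.5 against 190.3 to 394 and likewise did not pass.

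Atp5k, the e subunit of ATP synthase, had a raw signal of 52.4 in that tumour against 158.5 to 268, and Uqcrb, a ubiquinone-binding subunit of complex III, 495.6 against 1121.8 to 2036.9. Vehicle replicate 4 was also the highest of all tumours for 12 members (23.5%; 22.4% of all probes) and the lowest for 10 (19.6%; 14.1% of all probes). The 5 low genes had positive differences between the groups with all arrays, from 0.19 to 0.77, and negative ones without vehicle replicate 4, from -0.28 for Atp5md to -0.053 for Atp5k (limma adjusted p 0.604 to 0.926). Without that tumour 40 of 51 members were lower (78.4%; 51.6% of all probes), and the median relative to all probes was -0.10, with 0 members passing limma's adjusted test. The low genes belong to complex I, complex III and ATP synthase, and the probe sequences were not used here. Genes outside the chain were low in that tumour too. Mdh2 read 6.49 there and 9.47 to 10.47 in the others, and Col3a1, a fibroblast marker, 6.66 and 9.41 to 10.66.

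**Figure D4:**
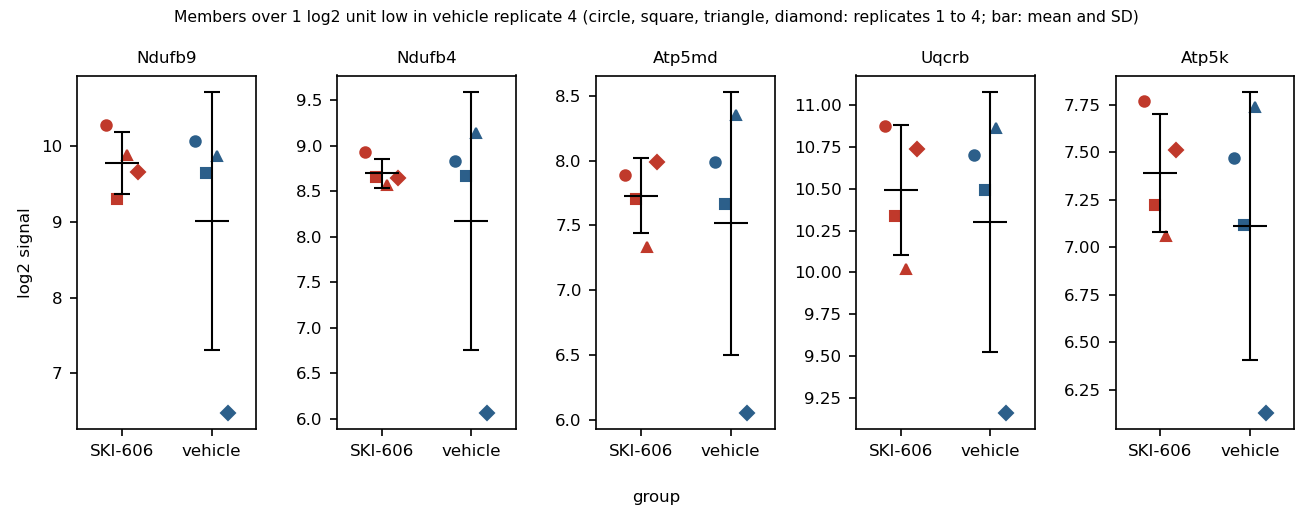
The log2 signal of each tumour (vertical axis) is plotted by group for Ndufb9, Ndufb4, Atp5md, Uqcrb and Atp5k, with symbols for replicates and bars for mean and SD. Vehicle replicate 4 (diamond) lies below the other 7 tumours in each panel, at 6.47 for Ndufb9, and the other tumours overlap between the groups.

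**Figure D5:**
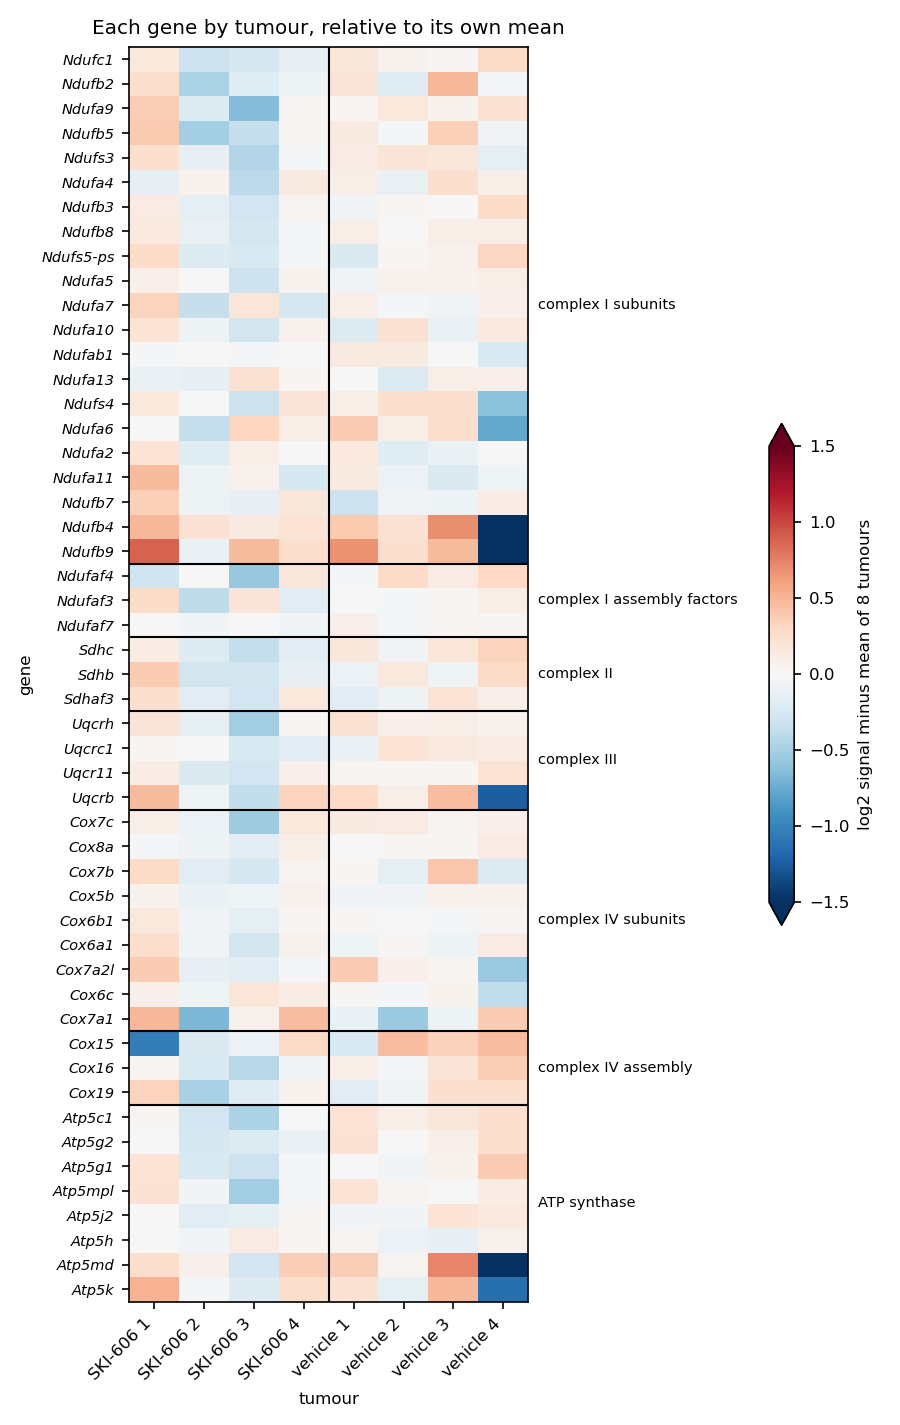
Each row is 1 of 51 genes, grouped by complex, each column a tumour, and colour gives the log2 signal minus that gene's mean over 8 tumours (red higher, blue lower, colours end at 1.5 either way). Blue runs through most rows of SKI-606 replicates 2 and 3, while the darkest cells of vehicle replicate 4 lie in a few rows of complex I, complex III and ATP synthase.

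Genes around the chain were followed by lists. Of 10 measured genes for electron transfer and assembly outside the symbol rule, 8 were lower and 2 higher, 0 passed adjusted, and the median was -0.14. At an unadjusted p under 0.05, 2 of the 10 were lower, against 10.3% of all probes. Ecsit, a complex I assembly protein, read 7.53 ± 0.20 against 7.92 ± 0.17 (SD, n = 4; limma adjusted p = 0.200). Atpif1, the inhibitor that stops ATP synthase from running backwards, read 12.79, 12.99, 12.88 and 13.07 in SKI-606 replicates 1 to 4 and 13.19, 13.12, 13.16 and 13.11 in vehicle replicates 1 to 4, without overlap (-0.21 ± 0.070, SE; limma adjusted p = 0.214).

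In the citric acid cycle and pyruvate dehydrogenase list, 8 genes were measured, 3 lower and 5 higher, with a median of 0.28 and 0 passing. Single tumours stood out in some of the higher genes. Mdh2 (0.54 ± 0.85, SE) read 6.49 in vehicle replicate 4 and 9.47 to 10.47 in the other tumours. Pdhb read 8.09 in SKI-606 replicate 1 and 6.40 to 6.71 elsewhere, and Mpc2 11.15 in that tumour and 9.52 to 10.22 elsewhere. Ogdh, a subunit of oxoglutarate dehydrogenase, read 10.15, 9.31, 10.26 and 9.83 in SKI-606 replicates 1 to 4 and 8.97, 9.06, 8.86 and 9.22 in vehicle replicates 1 to 4. All SKI-606 values lay above all vehicle values, a difference of 0.86 ± 0.21 (SE; limma adjusted p = 0.143). Of 14 glycolysis genes 9 were lower and 5 higher; their median was -0.18 and 0 passed. Ldhb, a lactate dehydrogenase subunit, differed by -0.37 ± 0.11 without overlap (limma adjusted p = 0.187), and Pkm, pyruvate kinase, by 0.23 ± 0.073, also without overlap (limma adjusted p = 0.198).

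Of 24 regulators of mitochondrial biogenesis and mitochondrial DNA 4 were measured, 3 lower and 1 higher, and 0 passed. Gabpa, the DNA-binding subunit of GABP, read 6.55, 6.50, 6.27 and 6.63 in SKI-606 replicates 1 to 4 and 6.80, 6.85, 6.85 and 6.76 in vehicle replicates 1 to 4. The groups did not overlap, at a dim signal, with a difference of -0.33 ± 0.082 (SE; limma adjusted p = 0.154). Ppargc1b, a coactivator of respiratory genes, read 8.49, 7.44, 7.71 and 7.53 in SKI-606 replicates 1 to 4 and 6.89, 7.44, 6.86 and 7.02 in vehicle replicates 1 to 4, with a difference of 0.74 ± 0.25 (SE; limma adjusted p = 0.219) and groups that touched at replicate 2. Of 14 genes of the hypoxia response list 2 were measured. Egln3, an oxygen-sensing prolyl hydroxylase, differed by -1.89 ± 0.27 (log2, SE; limma adjusted p = 0.0987), and the related Egln1 by -0.20 ± 0.17 (limma adjusted p = 0.611).

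Markers of other cell types were measured beside these values. Of 10 endothelial markers 4 were measured, and all 4 were higher at an unadjusted p under 0.05, against 6.04% of all probes. Their list means were 0.38 to 0.86 in SKI-606 tumours and -0.21 to 0.18 in vehicle tumours. Of 10 fibroblast markers 7 were measured, all higher, 4 of them at an unadjusted p under 0.05, against the same 6.04% of all probes. Their list means were 0.52 to 0.86 against -0.55 to 0.29. The -0.55 was that of vehicle replicate 4, where Col3a1 read 6.66 against 9.41 to 10.66 in the other tumours. Of 8 macrophage markers 5 were measured, 4 lower, 0 of them at that p, and 1 higher, Csf1r, which was at that p. The macrophage list means were -0.38 to 0.25 against -0.12 to 0.12. Of 9 T and B cell markers 1 was measured. Of these markers 0 passed limma's adjusted test. Their part in the member values was not tested.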

How the data were processed

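Per the labels' protocols, reverse transcription of 8 ng RNA preceded hybridisation to Illumina expression arrays. Groups and replicate numbers came from sample titles, except that 1 vehicle title has no number and is called replicate 3. Per the file headers, the authors' signal table holds an average intensity and a detection p-value per probe and array. Its values were assumed to be neither background-subtracted nor normalized. A second deposited table of normalized intensity values for 11434 probes was used only as an alternative. The array software is not given in the sources used here.

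Intensities were corrected and quantile-normalized with neqc (limma 3.58.1, R 4.3.3, offset 16), giving log2 signals. The 4 bacterial controls were left out; probes needed detection (p under 0.05) on 4 or more arrays. lmFit and eBayes compared SKI-606 with vehicle over 12281 probes, with Benjamini-Hochberg adjustment; differences are SKI-606 minus vehicle. Zero-padded numbers in probe names were read as Entrez Gene IDs and named from a RefSeq table (GRCm38.p6). Of 7968 such numbers with 5 or more digits 92.7% matched, against 48.9% after adding 1; 7643 probes in the test stayed unnamed. The closest arrays were vehicle replicates 1 and 3 (r = 0.992 across probes), with 48 probes more than 2-fold apart, and both were used.

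The rule for named members took the 3 with the smallest p in each class, those without overlap, core subunits, tissue isoforms, and genes whose probes differed in sign, and from each pathway list the 2 with the smallest p; other members are given to account for all 51. A gene that the rule names is not reported here. Members and lists were chosen with earlier results of these data known. The fit was tested on simulated data. Same-numbered arrays deviated together at r = 0.00442, 0.630 and -0.0183 across probes for numbers 1, 2 and 4. They were not treated as pairs, as this was clear for number 2 alone. Alternatives covered background, normalization, offset, filter, variance model, array weights, a replicate block, threshold, probe choice and each array left out. Figures used matplotlib 3.10.9.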

Additional observations from a re-analysis of the deposited data

Results flagged for a closer look

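In 112 groups of 4 tumours (named genes and list means), 8 held a tumour far from the other 3 by Dixon's gap test. Chance flags about 1 in 20, but Ndufb9 and Ndufb4 were named because vehicle replicate 4 was low in them. Their flags follow largely from that choice, so the 8 cannot be read against that rate. Of the members, vehicle replicate 4 was low for Ndufb9, at 6.47 against 9.65 to 10.08 in the other vehicle tumours (log2 signal), and for Ndufb4, at 6.06 against 8.66 to 9.14. It was high for Uqcr11, at 12.08 against 11.91 to 11.92. Vehicle replicate 2 was low for Ndufb8, at 12.48 against 12.56 to 12.58. Of the genes outside the chain, vehicle replicate 3 was high for Ldhb, at 11.05 against 10.95 to 10.96, and vehicle replicate 1 for Egln3, at 11.27 against 10.81 to 10.86. The skeletal muscle marker Actn3 stood high in vehicle replicate 4, at 1.28 against -0.44 to -0.42 relative to the vehicle mean, and in SKI-606 replicate 1, at 1.15 against -0.41 to -0.31.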

How the results depend on the processing

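Under each alternative run, 0 members passed an adjusted p under 0.05, and 0 passed at 0.1. The members' median relative to all probes stayed below 0, from -0.15 with arrays scaled to the same median to -0.013 with the replicate block. The block left out both replicate 3 arrays. The unadjusted and overlap counts were added after seeing the data. Over all probes the count at an adjusted p under 0.05 was 0 with median scaling, offset 50, detection on all 8 arrays, detection p under 0.01 on 1 array, an intensity trend with robust prior, or the replicate block. It was 185 with array weights, 30 at 0.1, and 0 to 13 with 1 array left out. Members lower at an unadjusted p under 0.05 numbered 8 with median scaling (15.7%; 19.99% of all probes), 2 with cyclic loess (3.92%; 9.48%), 2 with the authors' second table (the same share; 9.72%), and 2 to 9 with 1 array left out. Members lower without overlap numbered 6 with median scaling (11.8%; 12.1% of all probes) and 1 to 10 with 1 array left out (1.96% to 19.6%; 8.92% to 11.2% of all probes). The median of the complex I assembly factors relative to all probes, -0.031, was -0.15 with median scaling, -0.11 with array weights, -0.099 with the replicate block, and -0.13 to -0.019 with 1 array left out. With 1 array left out that of complex I subunits ran from -0.11 to -0.022, complex II -0.29 to -0.062, complex III -0.21 to -0.069, complex IV assembly -0.37 to -0.22 and ATP synthase -0.22 to -0.059, and that of complex IV subunits changed sign, from -0.080 to 0.053. Each of these 6 was highest without SKI-606 replicate 3, except that complex I subunits were highest without replicate 2, and each was lowest without SKI-606 replicate 1, except that complex IV assembly was lowest without vehicle replicate 2. The cause of these shifts was not tested.

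Of 42 named genes 30 kept their sign in all alternatives run, read against 0; Ogdh and Egln3 passed with array weights alone (limma adjusted p = 0.0470 and 0.0298). With median scaling the sign turned for Cox6a1 (-0.13), Cox6c (-0.021), Cox7a1 (-0.10), Cox7a2l (-0.21), Ndufs4 (-0.13), Atp5md (-0.068) and Uqcrb (-0.0099). That scaling moved the median of all probes to -0.12, and relative to it Cox6c (0.099), Cox7a1 (0.017), Atp5md (0.052) and Uqcrb (0.11) stayed positive. With array weights the sign turned for Cox7a2l (-0.14), Ndufs4 (-0.034), Sdhaf3 (0.044), Atp5md (-0.087), Ndufb4 (-0.058) and Uqcrb (-0.021). It turned for Sdhaf3 with the replicate block (0.13) and for Ndufs4 with the mean of its probes (-0.027). With 1 array left out the difference ran from -0.053 to 0.49 for Atp5k, -0.28 to 0.49 for Atp5md, -0.088 to 0.094 for Cox6a1, -0.15 to 0.17 for Cox7a2l, -0.14 to 0.081 for Ndufaf3, -0.18 to 0.85 for Ndufb4, -0.082 to 1.12 for Ndufb9, -0.18 to 0.13 for Ndufs4, -0.11 to 0.070 for Sdhaf3 and -0.19 to 0.38 for Uqcrb. Whether the numbers pair the samples is not stated, and same-numbered arrays deviated together clearly only for number 2 (r = 0.630). The block, over numbers 1, 2 and 4 only, left 0 members passing. The same arrays without the block gave the same 31 of 51 members lower and the same median of all probes, -0.01308. Shifts in the differences listed with the block therefore go with leaving out both replicate 3 arrays.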

Other observations

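Mitochondrial genes beside the chain were also counted, with 0 passing adjusted in each of 5 lists. Of 6 measured carriers and channels of the mitochondrial membranes 4 were higher and 2 lower. Ucp2, of the uncoupling protein family, read 7.18, 6.56, 7.32 and 7.26 in SKI-606 replicates 1 to 4 and 6.20, 6.37, 6.85 and 6.26 in vehicle replicates 1 to 4, with replicate 2 the lowest treated tumour (0.66 ± 0.21, log2 difference ± SE; limma adjusted p = 0.200). The dicarboxylate carrier Slc25a10 differed by 0.37 ± 0.15 without overlap (limma adjusted p = 0.277). Of 3 fatty acid oxidation genes 2 were lower, with Etfa, of the electron transfer flavoprotein, at -0.45 ± 0.22 and Eci2 at -0.030 ± 0.078. Coq5 and Coq8b, of coenzyme Q synthesis, differed by -0.19 ± 0.11 and 0.16 ± 0.16. The antioxidant enzymes Prdx5 and Sod1 differed by -0.11 ± 0.11 and 0.15 ± 0.17, and Micos13 and Mfn1, of cristae and fusion, by -0.14 ± 0.077 and 0.12 ± 0.082.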
